A study of Homo sapiens with 30 samples.

Results

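The 38 genes described here belong to homologous recombination and to the Fanconi anaemia pathway, together with the checkpoint kinases, the PARP enzymes and SLFN11 that act beside them. They were chosen by name: each member is a row of the deposited count table whose Ensembl ID maps to its symbol, and the 38 rows were taken from 33538 in all. RNA came from 3 Ewing sarcoma cell lines, CHLA10, A673 and TC32, each an established tumour line labelled EWS::FLI1, a fusion that joins EWSR1 to the ETS factor FLI1 and drives Ewing sarcoma. The treated cells were given BMS-986158 at 5 nM, a compound that blocks BET bromodomains (BETi from here on), and control cells were given DMSO as vehicle. The groups were CHLA10, A673 and TC32 under BETi for 72 h (labelled 3 d) against the same lines in DMSO, and CHLA10 and A673 kept under BETi without a break for 20 d, called persister cells in the labels, against DMSO of the same label. There were 10 groups with 3 libraries apiece, 30 in total, and EWS::FLI1 was common to all. The labels give neither the time the 20 d DMSO cells spent in DMSO nor the origin of the replicates, so the spread behind each p-value is that of the libraries and could be technical. CHLA10 was cultured in IMDM and A673 and TC32 in RPMI, so line and medium cannot be told apart where CHLA10 is compared with either; A673 and TC32 share a medium.

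Homologous recombination copies a broken DNA end from the sister chromatid. MRE11, RAD50 and NBN bind the ends and, with RBBP8 (CtIP) and EXO1, trim them to single strands, on which BRCA1, BARD1, PALB2 and BRCA2 act to start strand exchange. The Fanconi core complex attaches ubiquitin to FANCI and FANCD2 at DNA crosslinks, a step for which FANCL is the ligase, and the repair that follows uses recombination proteins. BET proteins bind acetylated histones and promote transcription, and Ewing sarcoma lines are known for high SLFN11 and for sensitivity to PARP inhibitors in culture.

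Each library held 16.1e6 to 48.9e6 counts. CD99, NR0B1, BCL11B, STEAP1 and PRKCB, markers of Ewing sarcoma, were present at 13.7 CPM (counts scaled to a library of fixed size) or more in every library. NKX2-2, another such marker, had a median of only 0.853 CPM in CHLA10, against 46.1 CPM in A673 and 89.7 CPM in TC32. CD3E and MS4A1 of lymphocytes were at 0 in every library, and PTPRC, VWF, CDH5, EPCAM and CDH1 stayed at or below 1.47 CPM. CD68 ranged from 3.28 to 20.7 CPM, PECAM1 reached 4.99 CPM and the fibroblast markers DCN and LUM reached 9.52 and 10.8 CPM. The third libraries of 4 groups stood farthest from the other libraries of their groups: A673 20 d BETi, A673 3 d DMSO, CHLA10 20 d BETi and CHLA10 20 d DMSO. Counts of members are also given without them, as are the values of the members that led in those groups. Each of these groups then holds only replicates 1 and 2. By the SD of log2 differences from the rest of the group, the least distant of the 4 stood at 0.573. TC32 3 d DMSO replicate 1 and A673 20 d BETi replicate 2, which were kept, stood at 0.569 each. The 4 were picked by their distance in these same data, which lowers the spread within groups. Calls kept or gained without them, and their smaller adjusted p, are thus no independent support. Neither the strand setting of the counting nor its treatment of shared bases is given, so counts of overlapping genes are uncertain. In GENCODE 29, genes on the opposite strand cover 76.7% of the XRCC3 exons (KLC1), 25.1% of RAD54L (LRRC41), 23.6% of FANCA (ZNF276) and 18.7% of FANCL (VRK2). On the same strand, AC116366.3 covers 79.7% of the RAD50 exons and FSBP 59.1% of RAD54B, where any strand setting leaves the reads shared; these 2 genes had 1 to 23 and 0 to 31 counts per library in the table. RBBP8, MRE11, FANCD2, CHEK2 and PARP1 have annotated pseudogenes.

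All 38 members passed the filter on low counts. A member was called when its adjusted p fell under 0.05 in edgeR's quasi-likelihood test with Benjamini-Hochberg adjustment over all 16713 genes tested, and every log2 change in the text is BETi over DMSO unless it names other groups. In CHLA10 at 3 d, 5 members were higher and 6 lower under BETi, where 14.0% of all genes tested were higher and 15.7% lower. In A673 at 3 d, 6 members were higher and 5 lower, where 15.3% of all genes were higher and 18.4% lower. In TC32 at 3 d, 10 members were higher and 13 lower, where 22.3% of all genes were higher and 22.8% lower. The members' shares in CHLA10 (13.2% higher, 15.8% lower) and A673 (15.8% and 13.2%) were thus near or below those of all genes, and those in TC32 (26.3% and 34.2%) were above them. In CHLA10 at 20 d, 13 members were higher and 1 lower, where 16.5% of all genes were higher and 17.2% lower. In A673 at 20 d, 4 members were higher and 7 lower, where 19.7% of all genes were higher and 19.9% lower. The median log2 change of the 38 members was -0.06, 0.03 and -0.08 in CHLA10, A673 and TC32 at 3 d and 0.14 and -0.12 in CHLA10 and A673 at 20 d, beside -0.01, -0.02, -0.01, -0.02 and 0.00 over all genes. A 1.5-fold change in either direction, with an adjusted p under 0.05, was passed by 2 members in CHLA10, 4 in A673 and 9 in TC32 at 3 d. At 20 d it was passed by 0 in CHLA10 and 3 in A673. The share of all genes past that change was not counted, so these counts do not set members against other genes. Without the 4 distant libraries the counts higher and lower were 8 and 9 in CHLA10, 13 and 9 in A673 and 12 and 14 in TC32 at 3 d, and 17 and 2 in CHLA10 and 5 and 14 in A673 at 20 d. More of all genes were called in that fit too: 19.0% higher and 21.5% lower in CHLA10, 23.5% and 21.8% in A673 and 25.7% and 28.1% in TC32 at 3 d, and 18.5% and 18.0% in CHLA10 and 23.0% and 24.7% in A673 at 20 d.

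**Figure D1:**
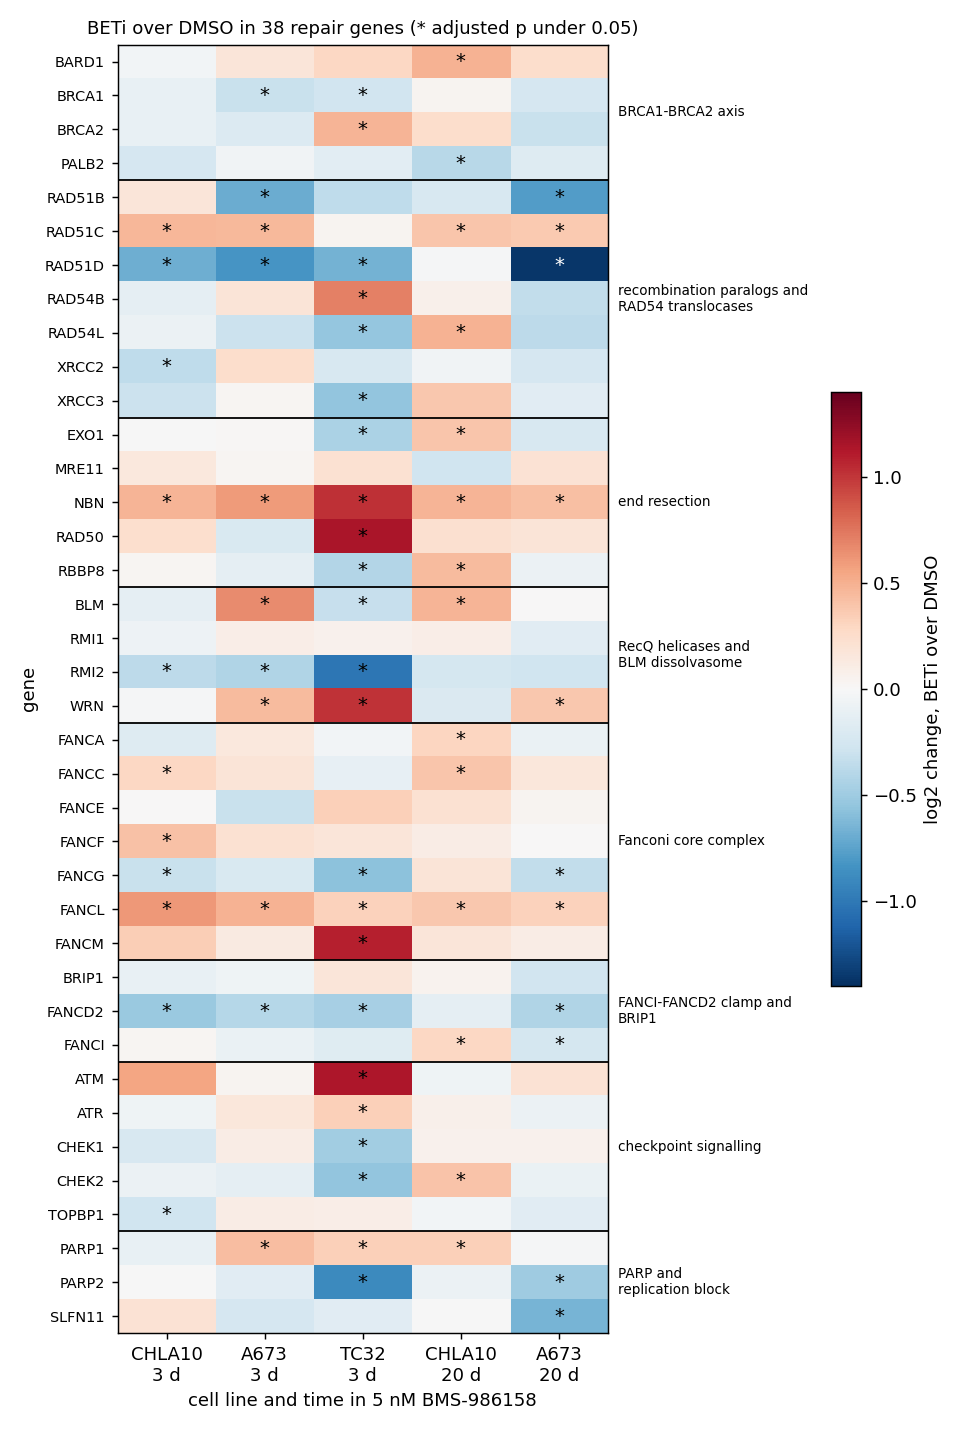
Log2 change of the 38 members (rows, grouped by role) under BETi over DMSO in the 5 comparisons (columns: line and days of treatment). Colour gives the log2 change and a star an adjusted p under 0.05: NBN and FANCL carry a star and a higher level in all 5 columns, and RAD51D has the largest fall, -1.36 in A673 at 20 d.

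In TC32, the change of a gene under BETi went with its length over the whole table. The median log2 change was -0.30, -0.12, 0.06 and 0.26 in 4 equal groups of genes ordered from the shortest to the longest merged exons, against -0.07, -0.04, 0.01 and 0.03 in CHLA10 and -0.11, -0.03, 0.01 and 0.03 in A673 at 3 d. Members are long: 17 of the 38 fell in the longest group and 2 in the shortest. The 10 members higher in TC32 had a median exon length of 7818 bases and the 13 lower ones 5091 bases. With the length trend removed from each library, 9 members were higher and 16 lower in TC32, where 19.5% of all genes were higher and 22.1% lower. Under that removal NBN, RAD50, FANCM, WRN, ATM and RAD54B kept their call, BRCA2 (0.12, adjusted p = 0.545), PARP1 (0.17, adjusted p = 0.175) and RAD54L (-0.35, adjusted p = 0.0844) lost it, and ATR turned to -0.03 (adjusted p = 0.87). Mitochondrial genes took 3.82 to 4.74% of counts under BETi in TC32, against 2.99 to 3.64% in DMSO. RNA quality is not given in the sources used here, and the part of either in the trend was not tested.

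**Figure D2:**
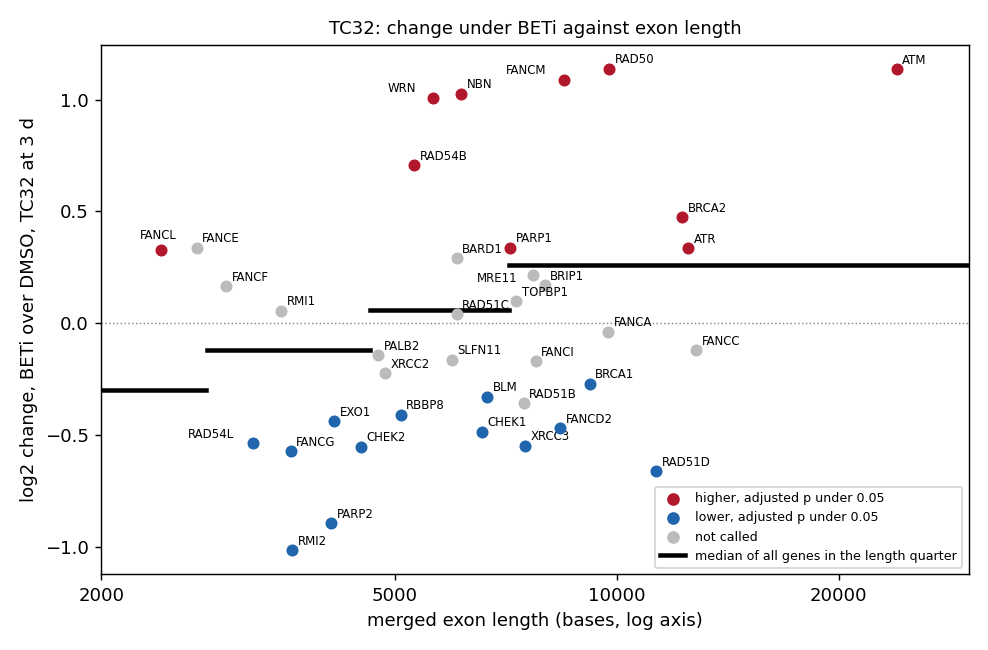
Log2 change under BETi over DMSO in TC32 at 3 d (y axis) against merged exon length in bases (x axis, log scale) for the 38 members, coloured by their call. Black bars are the medians of all genes in each length group, which climb with length (-0.30, -0.12, 0.06 and 0.26); RAD50, FANCM, NBN and WRN lie well above their bars, and RAD51D, FANCD2 and RMI2 well below.

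NBN, the subunit of the MRE11 complex that recruits ATM, was higher under BETi in all 5 comparisons. In CHLA10 at 3 d it had 87.1, 78.4 and 76.4 CPM under BETi, against 57.2, 55.5 and 61.5 CPM in DMSO. In A673 at 3 d it had 50.2, 41.2 and 47.0 CPM under BETi, against 29.3, 28.0 and 34.2 CPM in DMSO. In TC32 it had 107, 137 and 137 CPM under BETi, against 57.7, 68.4 and 61.1 CPM in DMSO. Every treated library lay above every DMSO library of its line in these 3 comparisons. At 20 d, CHLA10 had 78.6, 77.6 and 67.1 CPM under BETi, against 53.5, 58.5 and 48.3 CPM in DMSO. A673 at 20 d had 42.6, 45.5 and 45.1 CPM under BETi, against 36.6, 31.1 and 31.5 CPM in DMSO. The groups again did not overlap. The log2 changes were 0.47 ± 0.11 (SE; adjusted p = 0.00152) in CHLA10, 0.60 ± 0.11 (adjusted p = 0.000154) in A673 and 1.03 ± 0.11 (adjusted p = 3.57e-08) in TC32 at 3 d, and 0.48 ± 0.11 (adjusted p = 0.00122) in CHLA10 and 0.42 ± 0.11 (adjusted p = 0.00308) in A673 at 20 d. The rise was larger in TC32 than in CHLA10 by 0.55 ± 0.15 on the log2 scale (adjusted p = 0.0175) and than in A673 by 0.43 ± 0.16 (adjusted p = 0.0428). NBN kept its call in each of the 5 comparisons when any of the 6 libraries concerned was left out. Such fits are not given for the differences between lines.

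FANCL, the ubiquitin ligase of the Fanconi core complex, was also called higher in all 5, although its calls in TC32 and in A673 at 20 d were close to the threshold. Under BETi at 3 d it had 24.0, 21.3 and 20.0 CPM in CHLA10, against 14.1, 15.1 and 13.7 CPM in DMSO. It had 33.6, 30.6 and 31.7 CPM under BETi in A673, against 22.7, 27.1 and 18.8 CPM in DMSO. In TC32 it had 20.0, 19.9 and 17.5 CPM under BETi, against 14.1, 15.9 and 15.8 CPM in DMSO. The groups did not overlap in any line. The log2 changes were 0.61 ± 0.13 (adjusted p = 0.00057), 0.48 ± 0.12 (adjusted p = 0.00341) and 0.33 ± 0.13 (adjusted p = 0.0382) in CHLA10, A673 and TC32 at 3 d, and 0.38 ± 0.13 (adjusted p = 0.0191) and 0.32 ± 0.13 (adjusted p = 0.0416) in CHLA10 and A673 at 20 d. The TC32 call was lost in 4 and the A673 20 d call in 5 of the 6 fits that left out 1 library, with log2 changes of 0.28 to 0.39 and 0.23 to 0.41. DESeq2 did not call FANCL in TC32 (0.30, adjusted p = 0.051) or in A673 at 20 d (0.28, adjusted p = 0.0638), nor did edgeR with RLE factors (adjusted p = 0.0541 and 0.0729) or upper-quartile factors (0.0848 and 0.126). The CHLA10 20 d call was lost without BETi replicate 1 (0.34, adjusted p = 0.0708) and without DMSO replicate 3 (0.31, adjusted p = 0.087).

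RAD51D, a recombination paralog that works with RAD51B, RAD51C and XRCC2, was lower in all 3 lines at 3 d. It had 12.4, 12.4 and 11.8 CPM under BETi in CHLA10, against 19.2, 19.3 and 20.1 CPM in DMSO. It had 6.02, 4.98 and 6.38 CPM under BETi in A673, against 8.60, 10.8 and 11.4 CPM in DMSO. It had 11.8, 14.4 and 14.6 CPM under BETi in TC32, against 19.8, 22.4 and 22.3 CPM in DMSO. No treated library reached the lowest DMSO library of its line. The log2 changes were -0.68 ± 0.16 (adjusted p = 0.00162), -0.82 ± 0.16 (adjusted p = 0.000295) and -0.66 ± 0.16 (adjusted p = 0.00119) in CHLA10, A673 and TC32. At 20 d RAD51D was called lower in A673 and not in CHLA10. In neither line was its BETi effect at 20 d called different from that at 3 d. A673 had 3.39, 3.56 and 5.68 CPM under BETi, against 9.60, 11.2 and 11.7 CPM in DMSO, a log2 change of -1.36 ± 0.17 (adjusted p = 3.69e-07). CHLA10 had 14.6, 15.6 and 13.3 CPM under BETi, against 13.3, 15.6 and 15.1 CPM in DMSO, a log2 change of -0.02 with a 95% interval of -0.33 to 0.29 (adjusted p = 0.952). The difference between the effects, A673 minus CHLA10 at 20 d, was -1.34 ± 0.23 (adjusted p = 0.000117). Without the 4 distant libraries the RAD51D change was -1.65 in A673 at 20 d (adjusted p = 2.12e-09) and -0.70 in A673 at 3 d (adjusted p = 0.000327). RAD51L3-RFFL shares 8.01% of the RAD51D exons.

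FANCD2, the member of the FANCI-FANCD2 clamp whose ubiquitination marks pathway activity, was lower in all 3 lines at 3 d and in A673 at 20 d. At 3 d it had 42.6, 39.3 and 39.8 CPM under BETi in CHLA10, against 61.6, 57.5 and 55.7 CPM in DMSO. In A673 it had 53.8, 50.7 and 52.0 CPM under BETi, against 63.0, 65.9 and 77.4 CPM in DMSO. TC32 had 23.1, 24.4 and 26.8 CPM under BETi, against 35.4, 33.1 and 34.6 CPM in DMSO. The groups were apart in each line, with log2 changes of -0.52 ± 0.11 (adjusted p = 0.000685), -0.40 ± 0.11 (adjusted p = 0.00579; -0.27 and adjusted p = 0.0087 without the distant libraries) and -0.47 ± 0.11 (adjusted p = 0.00131). At 20 d A673 had 45.8, 51.8 and 67.6 CPM under BETi, against 72.1, 73.3 and 76.0 CPM in DMSO (log2 change -0.42 ± 0.11, adjusted p = 0.00295; -0.61 and adjusted p = 5.01e-07 without the distant libraries). CHLA10 at 20 d had 39.9, 42.1 and 33.6 CPM under BETi, against 40.1, 40.9 and 45.0 CPM in DMSO, and the groups overlapped (-0.12, 95% interval -0.34 to 0.10, adjusted p = 0.428).

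RMI2, which joins BLM in the complex that dissolves crossed-over DNA strands, was the other gene lower in all 3 lines at 3 d. It had 20.4, 19.5 and 19.8 CPM under BETi in CHLA10, against 24.9, 25.6 and 26.2 CPM in DMSO. In A673 it had 44.6, 46.4 and 43.9 CPM under BETi, against 67.9, 65.2 and 47.4 CPM in DMSO. TC32 had 16.6, 15.2 and 14.9 CPM under BETi, against 32.6, 28.5 and 33.3 CPM in DMSO. The largest fall was in TC32, to a fold of 0.495 (log2 change -1.01 ± 0.13, adjusted p = 7.53e-07). In A673 the change was -0.42 ± 0.13 (adjusted p = 0.0116), and it lost its call without DMSO replicate 1 (-0.33, adjusted p = 0.0805) and without DMSO replicate 2 (-0.36, adjusted p = 0.0627). In CHLA10 it was -0.36 ± 0.13 (adjusted p = 0.0367), and the call was lost in all 6 fits that left out 1 library (-0.38 to -0.34, adjusted p up to 0.1), so that call stands only on the full set of 3 against 3.

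**Figure D3:**
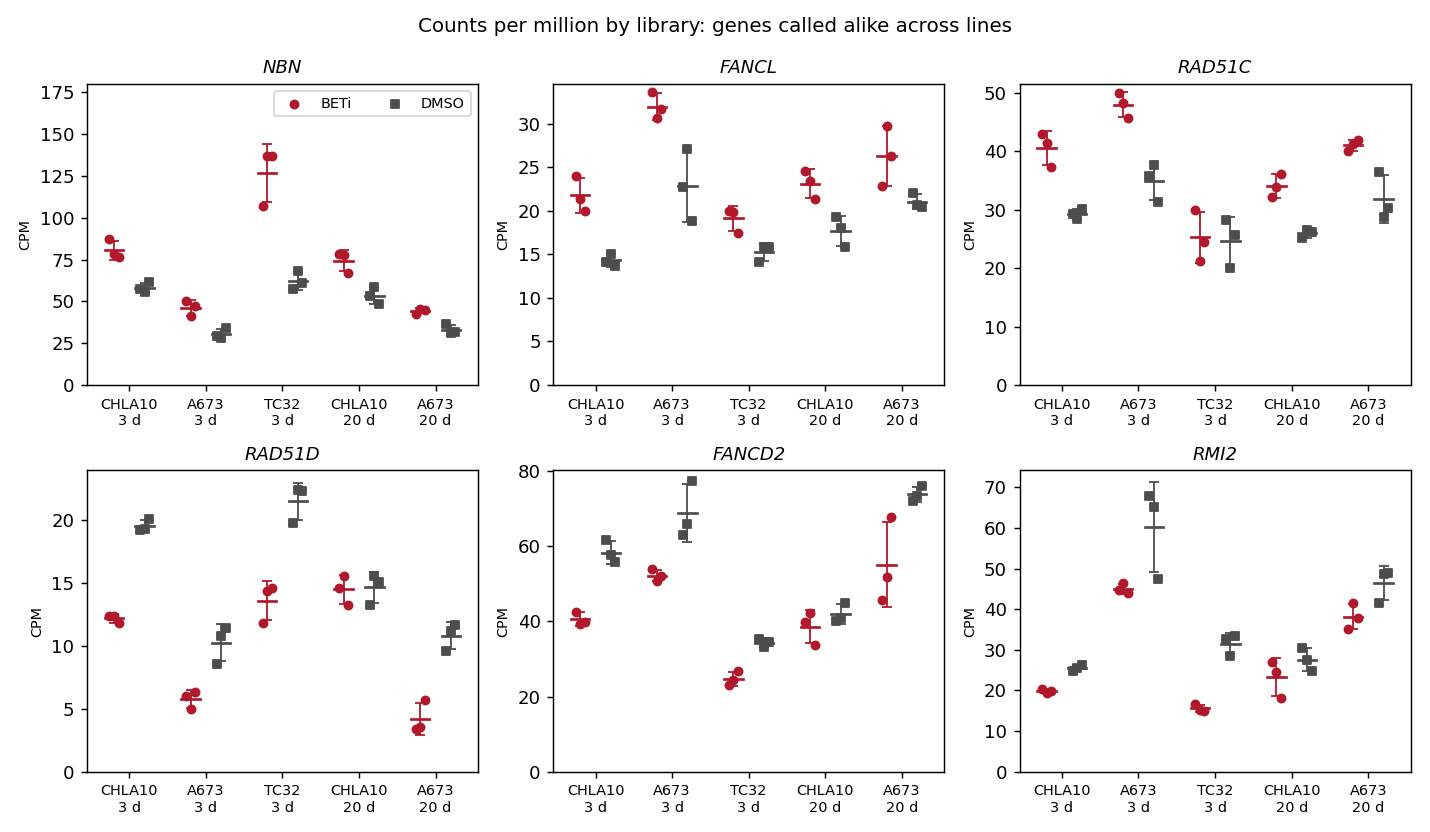
CPM (y axis) of 6 genes in each library, by line and time (x axis), BETi as red circles and DMSO as grey squares, with the mean (bar) and SD of 3 libraries. NBN and FANCL lie higher under BETi in each pair and RAD51D lies lower in each pair but CHLA10 at 20 d.

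Promoter sequences bear on whether members that moved together share sequence words, and 33 of the 38 members matched RefSeq promoter windows (GRCh38.p14, 250 bases before to 50 after a start site; a gene with several start sites has several windows, and a word in any of them counts). Words of E2F type, the factors that drive S-phase genes (TTTCCCGC, TTTGGCGC, TTTCGCGC or TTTGCCGC on either strand), were in the windows of 7 of the 33 members (21.2%), against 3.99% of the 27305 genes in the table and 6.32% of its 12523 genes that were tested here. The 7 were EXO1, FANCA, FANCC, FANCD2, RMI1, TOPBP1 and XRCC2. An ETS word (CCGGAAGT), the kind read by the FLI1 domain of the fusion, was in 5 members (15.2%), BRCA2, FANCD2, MRE11, PALB2 and RAD50, against 4.95% of all genes and 8.84% of those tested. The CCAAT word was in 15 members (45.5%), against 39.7% of all genes and 42.7% of those tested. The CHR word (TTTGAA) was in 3 (9.09%), against 18.2% of all genes and 14.0% of those tested. The NRF1 core (GCGCATGC) was in 2 (6.06%), against 3.68% and 5.92%.

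Non-exonic upstream stretches are shown for RAD51D, the member with the largest fall, for FANCC and FANCA, which hold E2F-type words, and for BRCA2 and RAD50, which hold ETS words. Capitals mark the words named above; in FANCA the first is of E2F type and the second is CCAAT, and RAD51D holds none. They are written 5′ to 3′ on the gene's strand: RAD51D at chr17:35119870-35120021 (minus strand), FANCC, at the start site with the words, at chr9:95317710-95317889 (minus), FANCA at chr16:89816658-89816837 (minus), BRCA2 at chr13:32315345-32315473 (plus) and RAD50 at chr5:132556839-132556937 (plus), in GRCh38.p14 from RefSeq.
RAD51D: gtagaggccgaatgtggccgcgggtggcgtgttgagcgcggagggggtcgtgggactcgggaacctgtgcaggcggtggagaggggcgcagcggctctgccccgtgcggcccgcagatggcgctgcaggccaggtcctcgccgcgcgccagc
FANCC: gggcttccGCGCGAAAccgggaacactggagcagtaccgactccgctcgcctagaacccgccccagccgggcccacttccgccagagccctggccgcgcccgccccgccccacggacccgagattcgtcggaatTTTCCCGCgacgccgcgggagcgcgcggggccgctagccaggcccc
FANCA: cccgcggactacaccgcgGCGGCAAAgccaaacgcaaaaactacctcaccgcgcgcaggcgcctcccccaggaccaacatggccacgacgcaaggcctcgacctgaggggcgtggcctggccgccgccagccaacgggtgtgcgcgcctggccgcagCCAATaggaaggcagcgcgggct
BRCA2: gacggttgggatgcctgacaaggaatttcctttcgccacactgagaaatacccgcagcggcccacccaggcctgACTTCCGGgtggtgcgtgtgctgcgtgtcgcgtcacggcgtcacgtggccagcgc
RAD50: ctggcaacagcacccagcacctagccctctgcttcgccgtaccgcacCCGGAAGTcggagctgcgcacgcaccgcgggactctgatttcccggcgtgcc
A match describes letters only. Among the 7 members with an E2F-type word, FANCC was higher and FANCD2, XRCC2 and TOPBP1 were lower in CHLA10 at 3 d. FANCD2 was lower in A673 at 3 d and at 20 d, where the others were not called. FANCD2 and EXO1 were lower in TC32, and EXO1, FANCA and FANCC were higher in CHLA10 at 20 d. RMI1 was not called in any comparison of BETi with DMSO.

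Among the 4 genes of the BRCA1-BRCA2 axis, 0 were called in CHLA10 at 3 d, where 29.8% of all genes were called. BRCA1, the scaffold that starts strand loading with its partner BARD1, was lower in A673 and TC32 at 3 d. It had 36.0, 33.7 and 35.6 CPM under BETi in A673, against 40.6, 43.7 and 46.1 CPM in DMSO (log2 change -0.31 ± 0.10, adjusted p = 0.0189). It had 37.8, 44.6 and 42.8 CPM under BETi in TC32, against 45.0, 55.2 and 50.9 CPM in DMSO (-0.27 ± 0.10, adjusted p = 0.0318). The groups did not overlap in either line, although in TC32 the highest BETi library was close to the lowest DMSO library. In CHLA10, BRCA1 had 75.4, 68.1 and 65.5 CPM under BETi, against 79.2, 73.1 and 71.7 CPM in DMSO, and the groups overlapped (-0.10, 95% interval -0.30 to 0.10). The A673 call was lost without BETi replicate 2 (-0.27, adjusted p = 0.0952), DMSO replicate 2 (-0.31, adjusted p = 0.0501) or DMSO replicate 3 (-0.27, adjusted p = 0.0664), and without the 4 distant libraries (-0.23, adjusted p = 0.0647), and the TC32 call in 4 of 6 such fits (-0.34 to -0.20). At 20 d BRCA1 had 29.6, 33.6 and 36.5 CPM under BETi in A673, against 38.7, 37.9 and 40.4 CPM in DMSO, which did not pass (adjusted p = 0.0758).

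BRCA2, a mediator of strand exchange, was called in TC32 alone. It had 10.7, 15.5 and 13.6 CPM under BETi in TC32, against 9.82, 9.42 and 9.32 CPM in DMSO (log2 change 0.48 ± 0.18, adjusted p = 0.0312). The call was lost in 5 of 6 fits that left out 1 library and with the length trend removed. In A673 at 3 d it had 50.1, 53.1 and 53.6 CPM under BETi, against 47.3, 50.3 and 80.8 CPM in DMSO, the third DMSO library being high. PALB2, which bridges BRCA1 and BRCA2, was the 1 member lower in CHLA10 at 20 d, with 26.0, 27.7 and 26.0 CPM under BETi against 36.5, 39.7 and 28.2 CPM in DMSO (-0.39 ± 0.11, adjusted p = 0.0066; -0.29 and adjusted p = 0.0783 without DMSO replicate 2). BARD1 was higher there, with 35.7, 40.0 and 36.2 CPM under BETi against 22.7, 26.6 and 30.6 CPM in DMSO (0.49 ± 0.13, adjusted p = 0.00569; 0.39 and adjusted p = 0.0546 without DMSO replicate 1).

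The recombination paralogs moved apart. RAD51C, which pairs with XRCC3 and also sits with RAD51B, RAD51D and XRCC2, was higher in CHLA10 and A673 at both times. At 3 d it had 42.9, 41.5 and 37.4 CPM under BETi in CHLA10, against 29.3, 28.5 and 30.1 CPM in DMSO (log2 change 0.47 ± 0.12, adjusted p = 0.0037). In A673 it had 49.9, 48.3 and 45.7 CPM under BETi, against 35.8, 37.6 and 31.4 CPM in DMSO (0.46 ± 0.12, adjusted p = 0.0038). The 20 d changes were 0.39 ± 0.12 in CHLA10 (adjusted p = 0.0123; 0.35 and adjusted p = 0.0533 without BETi replicate 3) and 0.36 ± 0.12 in A673 (adjusted p = 0.016; 0.29 and adjusted p = 0.0927 without DMSO replicate 2, 0.33 and adjusted p = 0.0636 without DMSO replicate 3). RAD51C averaged 25.3 ± 4.42 CPM under BETi in TC32 and 24.6 ± 4.16 CPM in DMSO (SD, n = 3 each), with overlapping groups and a 95% interval of -0.20 to 0.28. RAD51B, a low gene with 33 to 168 counts per library, was lower in A673. It had 4.32, 4.22 and 3.40 CPM under BETi at 3 d, against 7.24, 6.16 and 5.81 CPM in DMSO (-0.69 ± 0.24, adjusted p = 0.0242), and 3.86, 2.10 and 4.50 CPM under BETi at 20 d, against 4.69, 5.94 and 7.56 CPM in DMSO (-0.79 ± 0.24, adjusted p = 0.00993). The 3 d call was lost without BETi replicate 2, BETi replicate 3 or DMSO replicate 1 (adjusted p up to 0.116), and the 20 d call without BETi replicate 2 (-0.53, adjusted p = 0.0934) or DMSO replicate 3 (-0.60, adjusted p = 0.0776).

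XRCC2 was lower in CHLA10 at 3 d, with 41.3, 38.8 and 40.8 CPM under BETi against 49.1, 54.3 and 51.2 CPM in DMSO (log2 change -0.36 ± 0.11, adjusted p = 0.0143). It had 40.0, 45.1 and 46.3 CPM under BETi in A673, against 39.2, 36.8 and 34.6 CPM in DMSO, which was not called alone, but the effects in the 2 lines differed by 0.60 ± 0.15 (A673 minus CHLA10, adjusted p = 0.0118). The CHLA10 call was lost without BETi replicate 2 (-0.33, adjusted p = 0.0618) or DMSO replicate 2 (-0.31, adjusted p = 0.0691). XRCC3 was lower in TC32 (-0.55 ± 0.16, adjusted p = 0.00566), where 76.7% of its exons are shared with KLC1. RAD54L, a translocase of strand exchange, was lower in TC32 and higher in CHLA10 at 20 d. It had 10.1, 15.5 and 13.0 CPM under BETi in TC32, against 21.5, 19.4 and 15.0 CPM in DMSO, so that the groups overlapped (-0.54 ± 0.16, adjusted p = 0.00815). It had 47.5, 45.3 and 33.1 CPM under BETi in CHLA10 at 20 d, against 28.8, 29.0 and 31.9 CPM in DMSO (0.49 ± 0.15, adjusted p = 0.0147). With the length trend removed, the TC32 call was lost (-0.35, adjusted p = 0.0844). The TC32 call was also lost in 2 of 6 and the CHLA10 call in 4 of 6 fits that left out 1 library. RAD54B, with 27 to 197 counts per library, was higher in TC32 (0.71 ± 0.24, adjusted p = 0.0194), a call lost in 3 of 6 such fits.

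Of the genes of end resection, NBN alone was called in the same direction throughout. RAD50, the ATPase that partners MRE11 and NBN, had 2.96, 6.28 and 6.61 CPM under BETi in TC32, against 1.34, 3.35 and 2.46 CPM in DMSO. The groups overlapped, at 24 to 128 raw counts per library, and the log2 change was 1.14 ± 0.27 (adjusted p = 0.00112), or 0.84 with the length trend removed. The TC32 effect exceeded that in A673 by 1.35 ± 0.37 (adjusted p = 0.00839). MRE11, the nuclease, was not called in any of the 5 comparisons. RBBP8, which starts resection, had 50.8, 58.5 and 54.8 CPM under BETi in TC32, against 73.3, 71.1 and 73.5 CPM in DMSO (-0.41 ± 0.10, adjusted p = 0.00112). In CHLA10 at 20 d it had 71.6, 70.7 and 58.7 CPM under BETi, against 47.0, 49.3 and 51.6 CPM in DMSO (0.44 ± 0.10, adjusted p = 0.000783). EXO1, the exonuclease of long-range resection, followed the same 2 calls. It had 79.3, 86.5 and 81.0 CPM under BETi in TC32, against 105, 113 and 116 CPM in DMSO (-0.44 ± 0.10, adjusted p = 0.000778), and 124, 129 and 127 CPM under BETi in CHLA10 at 20 d, against 89.7, 87.5 and 114 CPM in DMSO (0.39 ± 0.10, adjusted p = 0.0034).

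BLM, a RecQ helicase that works with RMI1, RMI2 and a topoisomerase, was called in opposite directions in A673 and TC32 at 3 d. In A673 at 3 d it had 68.0, 61.8 and 61.0 CPM under BETi, against 32.5, 37.6 and 50.5 CPM in DMSO (log2 change 0.66 ± 0.13, adjusted p = 0.000189; adjusted p = 5.56e-08 without the distant libraries). In CHLA10 at 3 d it had 66.4, 63.1 and 61.8 CPM under BETi, against 69.5, 71.8 and 67.4 CPM in DMSO, which was not called. In TC32 it had 17.6, 23.8 and 20.0 CPM under BETi, against 22.8, 28.8 and 25.5 CPM in DMSO (-0.33 ± 0.13, adjusted p = 0.0411), with overlapping groups. The effect in A673 exceeded that in CHLA10 by 0.78 ± 0.18 (adjusted p = 0.0047), and that in TC32 was below that in A673 by a log2 difference of -0.99 ± 0.18 (adjusted p = 0.000296). The TC32 call was lost in 4 of 6 fits that left out 1 library. WRN, the other RecQ helicase, was higher in TC32, with 45.5, 65.2 and 64.7 CPM under BETi against 25.9, 35.1 and 26.1 CPM in DMSO (1.01 ± 0.13, adjusted p = 4.8e-07), and in A673, with 67.4, 65.3 and 62.9 CPM under BETi against 47.3, 42.5 and 54.5 CPM in DMSO (0.44 ± 0.13, adjusted p = 0.0078). In CHLA10 it had 51.4, 50.5 and 57.8 CPM under BETi, against 54.5, 53.7 and 52.8 CPM in DMSO, and the TC32 effect exceeded the CHLA10 effect by 1.02 ± 0.18 (adjusted p = 0.000543). The A673 call was lost without DMSO replicate 2 (0.36, adjusted p = 0.0577). At 20 d WRN had 62.4, 71.3 and 66.9 CPM under BETi in A673, against 56.1, 47.4 and 50.7 CPM in DMSO (0.38 ± 0.13, adjusted p = 0.0169), a call lost in 3 of 6 fits that left out 1 library (0.32 to 0.45). RMI1 was not called in any of the 5.

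The 7 genes of the Fanconi core complex and its anchor held, at 3 d, 3 higher and 1 lower in CHLA10, 1 higher and 0 lower in A673 and 2 higher and 1 lower in TC32. Over all genes tested, 14.0% were higher and 15.7% lower in CHLA10, 15.3% and 18.4% in A673 and 22.3% and 22.8% in TC32. FANCM, the DNA translocase that anchors the complex, was higher in TC32, with 12.3, 16.3 and 16.2 CPM under BETi against 4.97, 9.03 and 6.99 CPM in DMSO (log2 change 1.09 ± 0.16, adjusted p = 3.05e-06; 0.86 with the length trend removed). That effect exceeded the one in A673 by 0.97 ± 0.21 (adjusted p = 0.00172) and the one in CHLA10 by 0.74 ± 0.21 (adjusted p = 0.0207; lost in 5 of 12 fits that left out 1 library, and with the length trend removed, at 0.55 and adjusted p = 0.0676). FANCG, an adaptor of the complex, was lower in CHLA10 and TC32 at 3 d and in A673 at 20 d. It had 34.0, 36.3 and 40.8 CPM under BETi in TC32, against 56.4, 52.1 and 56.9 CPM in DMSO (-0.57 ± 0.10, adjusted p = 2.93e-05). It had 59.2, 61.2 and 54.0 CPM under BETi in CHLA10, against 69.6, 70.6 and 76.2 CPM in DMSO (-0.31 ± 0.10, adjusted p = 0.0149; -0.26 and adjusted p = 0.0763 without BETi replicate 3, -0.27 and adjusted p = 0.0775 without DMSO replicate 3). In A673 at 20 d it had 50.2, 54.0 and 59.1 CPM under BETi, against 64.9, 70.0 and 72.1 CPM in DMSO (-0.34 ± 0.10, adjusted p = 0.00558). The groups did not overlap in any of the 3. FANCC was higher in CHLA10 at 3 d (0.29 ± 0.10, adjusted p = 0.0281; lost in 5 of 6 fits that left out 1 library) and at 20 d (0.38 ± 0.10, adjusted p = 0.00357), and FANCF at 3 d (0.41 ± 0.12, adjusted p = 0.00762; 0.33 and adjusted p = 0.0604 without BETi replicate 2). FANCA was higher in CHLA10 at 20 d (0.30 ± 0.12, adjusted p = 0.0455), with overlapping groups, and lost that call in 4 of 6 such fits and with replicates as pairs (0.31, adjusted p = 0.0526). FANCE was not called.

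FANCI, the partner of FANCD2, was higher in CHLA10 and lower in A673 at 20 d. It had 146, 153 and 132 CPM under BETi in CHLA10, against 109, 119 and 125 CPM in DMSO (log2 change 0.29 ± 0.10, adjusted p = 0.026), and 114, 120 and 122 CPM under BETi in A673, against 142, 139 and 142 CPM in DMSO (-0.25 ± 0.10, adjusted p = 0.0475). The effects differed by -0.54 ± 0.14 (A673 minus CHLA10, adjusted p = 0.0065). The CHLA10 call was lost in 4 of 6 and the A673 call in all 6 fits that left out 1 library. Such fits are not given for the difference between the effects. BRIP1, a helicase that binds BRCA1, was not called in any of the 5.

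Of the checkpoint genes, ATM and ATR, the kinases that signal breaks and stalled forks, were called in TC32 alone. ATM had 44.4, 59.3 and 61.2 CPM under BETi in TC32, against 23.6, 28.1 and 23.2 CPM in DMSO (log2 change 1.14 ± 0.29, adjusted p = 0.00286; 0.69 with the length trend removed). In CHLA10 at 3 d ATM had 145, 125 and 106 CPM under BETi, against 97.9, 85.4 and 72.2 CPM in DMSO. These groups did not overlap, but ATM was not called there (0.56 ± 0.28, adjusted p = 0.141). The TC32 effect on ATM was not called different from that in CHLA10 or in A673. ATM has the longest merged exons of the 38 (23972 bases), and its CHLA10 20 d libraries ranged from 74.4 to 150 CPM under BETi and from 94.3 to 148 CPM in DMSO. ATR had 28.4, 40.4 and 37.3 CPM under BETi in TC32, against 30.2, 28.5 and 25.4 CPM in DMSO (0.33 ± 0.14, adjusted p = 0.0485), with overlapping groups, and lost its call in 4 of 6 fits that left out 1 library. Neither DESeq2 (0.31, adjusted p = 0.0819) nor limma-voom (0.315, adjusted p = 0.1) called ATR there. With the length trend removed its change was -0.03 (adjusted p = 0.87). CHEK1, the kinase below ATR, was lower in TC32, with 36.5, 37.9 and 33.5 CPM under BETi against 51.3, 51.2 and 48.5 CPM in DMSO (-0.49 ± 0.10, adjusted p = 0.000236). CHEK2, the kinase below ATM, was lower in TC32, with 20.8, 19.8 and 18.1 CPM under BETi against 29.4, 28.6 and 28.2 CPM in DMSO (-0.55 ± 0.11, adjusted p = 0.000173), and higher in CHLA10 at 20 d, with 34.6, 37.0 and 31.5 CPM under BETi against 27.8, 24.5 and 25.9 CPM in DMSO (0.40 ± 0.11, adjusted p = 0.00486). TOPBP1, which activates ATR, was lower in CHLA10 at 3 d, with 169, 165 and 168 CPM under BETi against 210, 192 and 206 CPM in DMSO (-0.28 ± 0.08, adjusted p = 0.0124; -0.25 and adjusted p = 0.0587 without DMSO replicate 1).

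PARP1, which senses strand breaks and is the main target of PARP inhibitors, was higher in A673 and TC32 at 3 d. It had 653, 672 and 685 CPM under BETi in A673, against 470, 489 and 527 CPM in DMSO (log2 change 0.44 ± 0.10, adjusted p = 0.00096). It had 589, 641 and 639 CPM under BETi in TC32, against 474, 512 and 494 CPM in DMSO (0.34 ± 0.10, adjusted p = 0.0055). The TC32 call was lost with the length trend removed (0.17, adjusted p = 0.175). PARP1 had 535, 518 and 538 CPM under BETi in CHLA10, against 569, 565 and 581 CPM in DMSO, which was not called (-0.11, 95% interval -0.30 to 0.08). The A673 and CHLA10 effects differed by 0.54 ± 0.14 (adjusted p = 0.0108). At 20 d PARP1 was higher in CHLA10, with 472, 500 and 602 CPM under BETi against 379, 383 and 491 CPM in DMSO and overlapping groups (0.33 ± 0.10, adjusted p = 0.00916), a call lost without BETi replicate 3 (0.22, adjusted p = 0.107), DMSO replicate 1 (0.27, adjusted p = 0.0702) or DMSO replicate 2 (0.27, adjusted p = 0.0674). PARP2, the second break-sensing PARP, was lower in TC32, with 26.2, 22.9 and 22.3 CPM under BETi against 43.1, 47.0 and 42.7 CPM in DMSO (-0.89 ± 0.11, adjusted p = 3.34e-07), and in A673 at 20 d, with 33.6, 35.6 and 34.9 CPM under BETi against 49.3, 48.1 and 49.2 CPM in DMSO (-0.49 ± 0.11, adjusted p = 0.000604; -0.51 and adjusted p = 0.0001 without the distant libraries). The TC32 effect lay below the CHLA10 effect by a log2 difference of -0.89 ± 0.16 (adjusted p = 0.000521).

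SLFN11, which blocks stressed replication forks for good, was called in 1 of the 5 comparisons. In A673 at 20 d it had 112, 109 and 127 CPM under BETi, against 176, 184 and 189 CPM in DMSO (log2 change -0.65 ± 0.11, adjusted p = 1.64e-05; -0.73 and adjusted p = 1.16e-08 without the distant libraries). The groups lay well apart. In A673 at 3 d it had 169, 158 and 167 CPM under BETi, against 189, 208 and 186 CPM in DMSO (-0.24, 95% interval -0.44 to -0.03, adjusted p = 0.0843). In CHLA10 it had 370, 366 and 342 CPM under BETi at 3 d, against 307, 317 and 312 CPM in DMSO (0.20, 95% interval -0.003 to 0.41, adjusted p = 0.15), and 376, 359 and 261 CPM under BETi at 20 d, against 341, 353 and 307 CPM in DMSO (-0.01, 95% interval -0.21 to 0.20). In TC32 it had 149, 191 and 183 CPM under BETi, against 192, 207 and 187 CPM in DMSO (-0.16, 95% interval -0.37 to 0.04). The effects at 20 d differed by -0.65 ± 0.15 (A673 minus CHLA10, adjusted p = 0.00228). Within A673, SLFN11 and PARP2 were also the 2 members that differed between BETi at 20 d and BETi at 3 d (-0.51 ± 0.11, adjusted p = 0.00124, and -0.52 ± 0.11, adjusted p = 0.0013), where 20.2% of all genes did; without the distant libraries 9 members differed, where 36.8% of all genes did. Of the other SLFN genes, 4 of 5 could be tested, and SLFN5 was higher in CHLA10 and TC32 at 3 d (1.60 ± 0.21 and 1.51 ± 0.26) and in CHLA10 and A673 at 20 d (0.83 ± 0.21 and 0.77 ± 0.21), with adjusted p of 2.29e-06, 2.98e-05, 0.00287 and 0.00424. In A673 other SLFN genes were lower. SLFN13 was lower there at 20 d (-0.97 ± 0.26, adjusted p = 0.00411) and SLFN12 at 3 d (-1.09 ± 0.41, adjusted p = 0.0415). SLFN12 had only 18, 11 and 28 raw counts under BETi at 3 d, against 8, 31 and 59 in DMSO. These groups overlapped, and the highest count was in DMSO replicate 3, a distant library. SLFN12L was lower at both times, with 2, 0 and 9 raw counts under BETi at 3 d, against 23, 21 and 54 in DMSO (adjusted p = 0.000101), and 0, 1 and 1 under BETi at 20 d, against 50, 50 and 29 in DMSO (adjusted p = 1.16e-05).

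**Figure D4:**
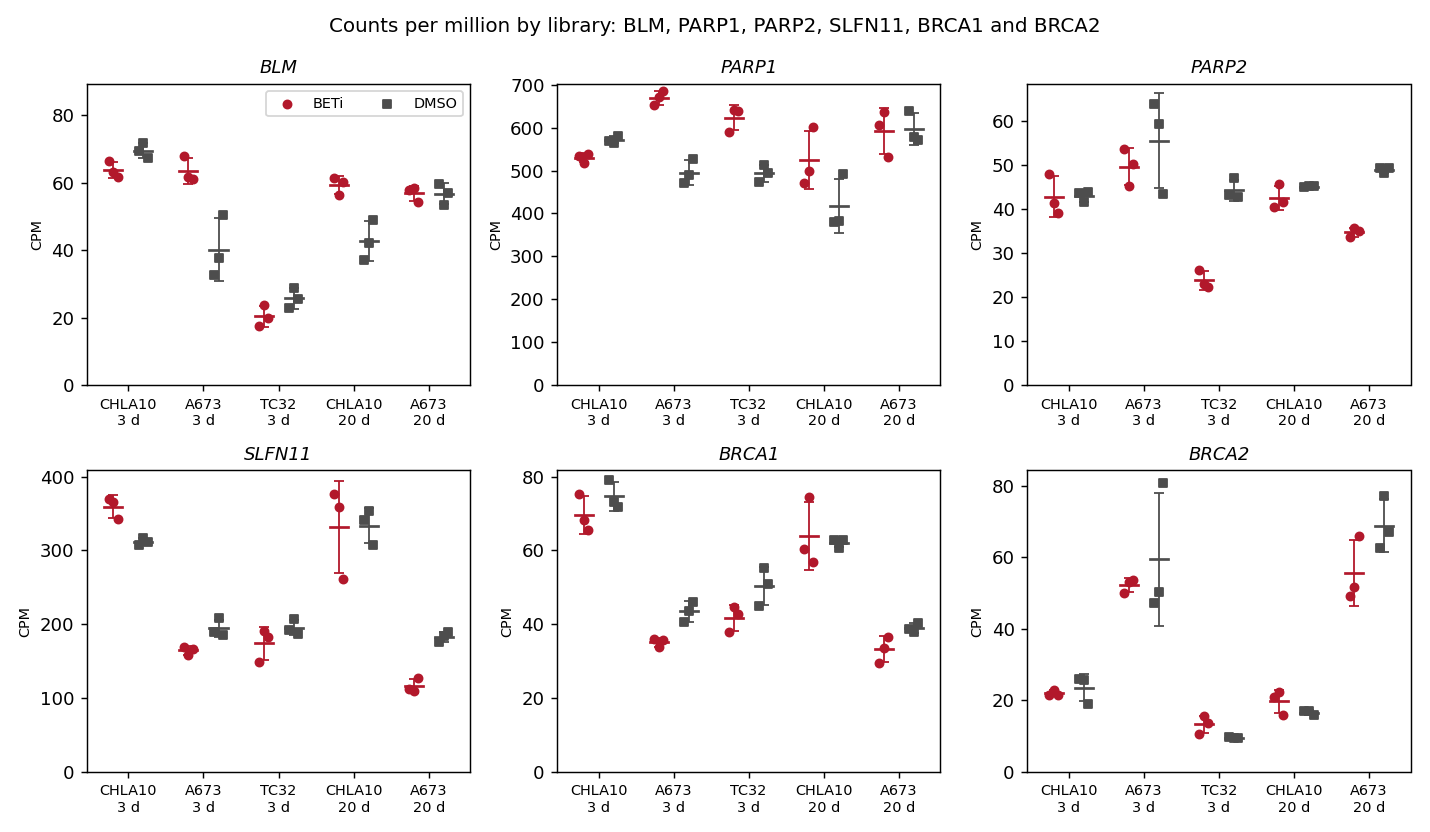
CPM (y axis) of BLM, PARP1, PARP2, SLFN11, BRCA1 and BRCA2 in each library, by line and time (x axis), BETi as red circles and DMSO as grey squares, with the mean (bar) and SD of 3 libraries. SLFN11 in A673 at 20 d lies between 109 and 127 CPM under BETi, below its DMSO libraries (176 to 189 CPM), and the BLM levels in CHLA10 DMSO are lower at 20 d than at 3 d.

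The rises in CHLA10 at 20 d stood beside a difference between the DMSO groups of that line. In DMSO at 20 d over DMSO at 3 d, 1 member was higher (MRE11, 0.39 ± 0.13, adjusted p = 0.0382) and 16 were lower, where 8.05% of all genes were higher and 7.06% lower. Under BETi at 20 d over BETi at 3 d, 0 of 38 members were called by edgeR, where 5.04% of all genes were called; 3 members had an unadjusted p under 0.05, and limma-voom and DESeq2 also called 0. Without the 4 distant libraries, 24 members differed between the DMSO groups and 2 between the BETi groups, where 29.1% and 8.58% of all genes did. The comparisons share libraries, so their values are set side by side and not tested against each other. BLM had 61.4, 56.3 and 60.1 CPM under BETi at 20 d and 66.4, 63.1 and 61.8 CPM under BETi at 3 d, against 37.2, 42.0 and 48.9 CPM in DMSO at 20 d and 69.5, 71.8 and 67.4 CPM in DMSO at 3 d. The lowest of these 4 groups was thus DMSO at 20 d. BLM in DMSO differed between the days by -0.71 ± 0.13 (adjusted p = 0.000535), and its BETi effect at 20 d was 0.47 ± 0.13 (adjusted p = 0.0041). Of the 13 members higher under BETi at 20 d, RAD54L, BARD1, BLM, RBBP8, CHEK2, EXO1, PARP1, FANCA and FANCI were among the 16 that were lower in DMSO at 20 d, and NBN, RAD51C, FANCC and FANCL were not. Both comparisons use the 20 d DMSO libraries, with opposite sign, and the same overlap was not counted over all genes. With replicates as pairs, whose deviations went together in this comparison, 12 members were higher and 2 lower at 20 d. Without DMSO replicate 1 there were 8 higher. The shares of all genes under these settings are not given here.

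**Figure D5:**
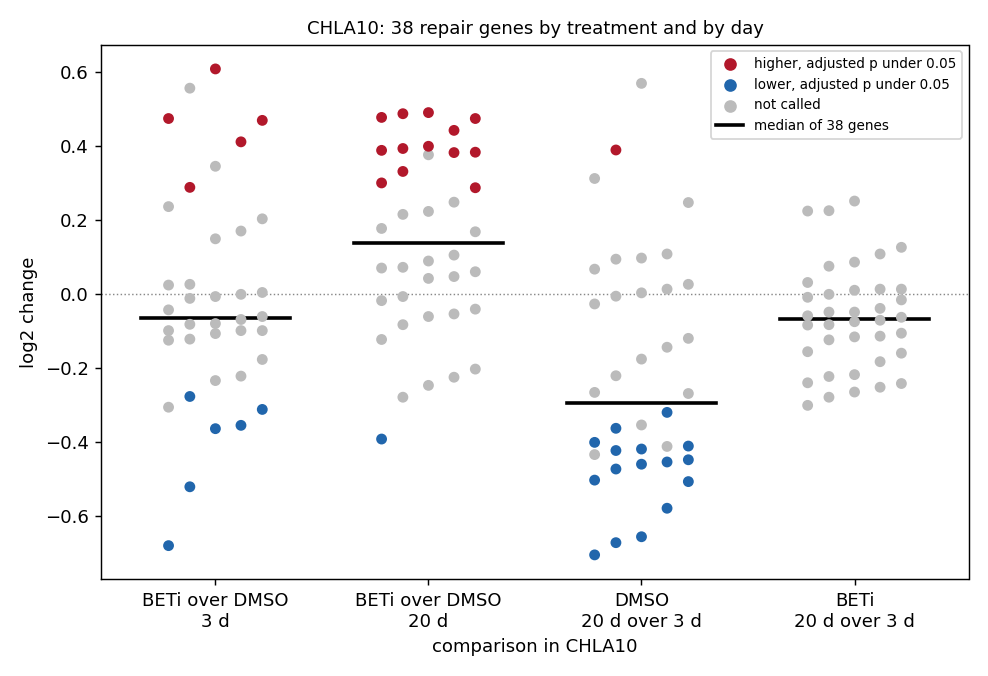
Log2 change (y axis) of the 38 members in CHLA10 for 4 comparisons (x axis): BETi over DMSO at 3 d and at 20 d, 20 d over 3 d in DMSO and 20 d over 3 d under BETi. Each point is a member, coloured by its call, and bars are medians; 16 members are lower in the DMSO comparison of days and none is called in the BETi comparison of days.

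Differences between the BETi effects were few over time. In CHLA10 the effect at 20 d minus that at 3 d differed for 2 members, BLM (0.60 ± 0.18, adjusted p = 0.0397) and FANCG (0.49 ± 0.14, adjusted p = 0.0313), where 6.32% of all genes differed. In A673 it differed for BLM (-0.66 ± 0.18, adjusted p = 0.0207) and PARP1 (-0.45 ± 0.14, adjusted p = 0.043), where 7.26% of all genes differed. These 4 calls were lost in 10, 8, 4 and 10 of the 12 fits that left out 1 library, and without the 4 distant libraries 15 members differed in CHLA10 and 13 in A673, where 18.5% and 25.4% of all genes did. In A673 DMSO at 20 d over 3 d, BLM was the 1 member called (0.49 ± 0.13, adjusted p = 0.0203), where 6.10% of all genes were; it had 59.6, 53.5 and 57.1 CPM in DMSO at 20 d and 32.5, 37.6 and 50.5 CPM in DMSO at 3 d, and without the distant libraries 17 members differed, where 33.7% of all genes did. In A673 at 20 d the split of calls depended on the scaling: 4 members higher and 7 lower became 3 and 12 with RLE factors, 2 and 13 with upper-quartile factors and 1 and 16 with library size alone, a scaling that shifts the median of all genes by -0.12. The shares of all genes higher and lower were 18.3% and 21.7%, 17.2% and 23.2%, and 15.0% and 25.4% under these scalings. RAD51D, RAD51B, SLFN11, PARP2, FANCD2, FANCG and FANCI were called lower under each of these, although FANCI lost its call in every fit that left out 1 library.

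Between lines at 3 d, the BETi effects of 4 members were higher in A673 than in CHLA10 (BLM, XRCC2, PARP1 and TOPBP1), where 10.5% of all genes differed. Those of TC32 and CHLA10 differed for 10 members, 5 in each direction, where 13.8% of all genes differed. Those of TC32 and A673 differed for 13 members, 6 higher and 7 lower in TC32, where 24.2% of all genes differed. At 20 d, 9 members differed between A673 and CHLA10, 1 higher and 8 lower in A673, where 21.9% of all genes differed. Without the 4 distant libraries 12, 17, 15 and 17 members differed in these 4 comparisons, where 27.5%, 27.4%, 34.4% and 32.4% of all genes did. With all libraries, RAD54L was among the 9 members that differed at 20 d (A673 minus CHLA10, -0.86 ± 0.22, adjusted p = 0.00529). Without the 4 distant libraries its difference was -1.06 (adjusted p = 0.000288). RAD54L at 20 d had 25.5, 23.1 and 23.6 CPM under BETi in A673, against 30.8, 33.4 and 28.9 CPM in DMSO. In CHLA10 it had 47.5, 45.3 and 33.1 CPM under BETi, against 28.8, 29.0 and 31.9 CPM in DMSO.

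In DMSO at 3 d the lines themselves differed for most members, as for most genes. A673 differed from CHLA10 for 24 members (8 higher, 16 lower), where 61.2% of all genes differed. TC32 differed from CHLA10 for 26 (1 higher, 25 lower), where 61.1% did, and from A673 for 30 (6 higher, 24 lower), where 66.6% did. Per kilobase of merged exon, PARP1 was highest of the 38 in each line, at 79.7 ± 1.1 CPM per kb in CHLA10, 69.1 ± 4.0 in A673 and 68.8 ± 2.6 in TC32 (SD, n = 3). SLFN11 came next, at 52.1 ± 0.8, 32.5 ± 2.1 and 32.7 ± 1.8 CPM per kb in CHLA10, A673 and TC32, and was lower in A673 than in CHLA10 by a log2 difference of -0.68 (adjusted p = 2.99e-06) and in TC32 than in CHLA10 by -0.68 (adjusted p = 3.39e-06), while A673 and TC32 did not differ beyond their spread (95% interval of TC32 over A673, -0.20 to 0.22). RAD50 had 0.681, 0.691 and 0.244 CPM per kb in CHLA10, A673 and TC32, the lowest values of the 38, but 79.7% of the exon length it is divided by is shared with AC116366.3 on the same strand. BRCA2 differed most between lines, with 4.85 ± 1.51 CPM per kb in A673, 1.92 ± 0.32 in CHLA10 and 0.776 ± 0.022 in TC32 (log2 difference of TC32 over A673 -2.64, adjusted p = 5.45e-13). The length trend also ran between lines: TC32 over CHLA10 in DMSO had median log2 differences of 0.32, 0.13, -0.09 and -0.31 over all genes from the shortest to the longest group.

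Genes of other pathways were set beside the members. At 3 d, 14.0% of all genes tested were higher and 15.7% lower in CHLA10, 15.3% and 18.4% in A673 and 22.3% and 22.8% in TC32. At 20 d the shares were 16.5% and 17.2% in CHLA10 and 19.7% and 19.9% in A673. The list counts below were not tested against these shares. Of 43 other homologous recombination and Fanconi genes, 4 were higher and 5 lower in CHLA10, 5 and 5 in A673 and 9 and 16 in TC32 at 3 d, and 10 and 2 in CHLA10 and 5 and 7 in A673 at 20 d. FAAP24, a core complex subunit, was lower in all 3 lines at 3 d (-0.81 ± 0.18, -0.93 ± 0.18 and -1.20 ± 0.19 in CHLA10, A673 and TC32, with adjusted p of 0.000762, 0.000251 and 7.33e-06) and in A673 at 20 d (-0.84 ± 0.18, adjusted p = 0.000568). Of 21 other checkpoint and damage signalling genes, 3 were higher and 2 lower in CHLA10, 4 and 1 in A673 and 5 and 4 in TC32 at 3 d, and 5 and 1 in CHLA10 and 4 and 5 in A673 at 20 d. H2AX, the histone that marks breaks when phosphorylated, was higher in CHLA10 at 3 d (0.63 ± 0.14, adjusted p = 0.000816), A673 at 3 d (0.70 ± 0.14, adjusted p = 0.000277), CHLA10 at 20 d (1.37 ± 0.14, adjusted p = 1.61e-08) and A673 at 20 d (0.77 ± 0.14, adjusted p = 5.55e-05). It was also lower in CHLA10 DMSO at 20 d over 3 d (-0.62 ± 0.14, adjusted p = 0.00313). Of 12 end joining genes tested, 1 was higher and 3 lower in CHLA10, 0 and 2 in A673 and 1 and 6 in TC32 at 3 d, and 4 and 3 in CHLA10 and 0 and 3 in A673 at 20 d. XRCC4, which works with DNA ligase IV, was lower in all 3 lines at 3 d (-0.73 ± 0.22, -0.69 ± 0.22 and -1.57 ± 0.22, with adjusted p of 0.0143, 0.0146 and 2.52e-06). Of 23 mismatch and base excision repair genes, 6 were higher and 3 lower in CHLA10, 7 and 4 in A673 and 4 and 5 in TC32 at 3 d, and 9 and 2 in CHLA10 and 3 and 5 in A673 at 20 d. MSH3, a mismatch recognition subunit, was higher in all 3 lines at 3 d (0.71 ± 0.14, 0.52 ± 0.13 and 0.64 ± 0.14, with adjusted p of 0.00019, 0.00389 and 0.000371).

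Replication and G1/S genes were counted in the same comparisons, with the same shares of all genes beside them. In CHLA10 DMSO at 20 d over 3 d, 8.05% of all genes were higher and 7.06% lower. Of 25 such genes, 0 were higher and 17 lower in CHLA10 at 3 d (median log2 change -0.36), 1 and 6 in A673 at 3 d (-0.08) and 1 and 20 in TC32 (-0.74). At 20 d, 12 were higher and 0 lower in CHLA10 (0.27) and 1 higher and 15 lower in A673 (-0.36), and in CHLA10 DMSO at 20 d over 3 d 0 were higher and 22 lower (-0.58). Their summed level was 4272 to 4402 CPM under BETi and 3374 to 4104 CPM in DMSO in CHLA10 at 20 d, and 4112 to 4261 CPM under BETi and 5419 to 5668 CPM in DMSO at 3 d. In TC32 it was 2395 to 2444 CPM under BETi and 3678 to 3817 CPM in DMSO. In A673 it was 5050 to 5079 CPM under BETi and 4955 to 5610 CPM in DMSO at 3 d, and 4709 to 5113 CPM under BETi and 5844 to 6931 CPM in DMSO at 20 d. MCM5 of the replicative helicase fell in TC32 (-1.24 ± 0.10, adjusted p = 2.62e-10). Of 25 mitosis and G2/M genes, 0 were higher and 5 lower in CHLA10, 0 and 4 in A673 and 1 and 16 in TC32 at 3 d, and 5 and 1 in CHLA10 and 0 and 11 in A673 at 20 d. The part of cell cycle position in the members' changes was not tested.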

How the data were processed

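Poly(A) RNA of 30 libraries was sequenced as read pairs on an Illumina NovaSeq instrument, per the labels' protocols. The deposited values are whole-number read counts per Ensembl gene, not normalized; the submitters' processing notes name FastQC, Trim Galore, STAR, DESeq2, GRCh38 and hg38, while the sources used here name no counter, strand setting or annotation. Each column matched 1 sample title, and all labels give batch 1.

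Counts were filtered by filterByExpr (16713 genes kept), scaled by TMM and tested in R 4.3.3 with edgeR 4.0.16: 1 quasi-likelihood model with a mean for each of the 10 groups over all 30 libraries, robust dispersion and Benjamini-Hochberg adjustment over all genes kept. SE was taken as |log2 change| over the root of F, and CPM used the TMM-scaled library sizes. The fit was tested on simulated counts. Exon lengths and overlaps came from GENCODE 29 and promoters from RefSeq. Pairing by replicate number was checked from correlations between deviations from the group mean; only CHLA10 at 20 d had every pair over 0.1 (0.20, 0.15 and 0.36). No pair of libraries agreed within counting noise (lowest chi-square per gene 2.194). Alternatives were DESeq2 1.42.0, limma-voom (limma 3.58.1), other scalings and filters, a replicate block, each library left out and, chosen after seeing the data, removal of the length trend and of the 4 most distant libraries. Members, lists and tests were chosen with earlier results of these data known. One gene of the wider recombination list is not reported here. All 38 members were accounted for; libraries are given one by one for members called alike in all lines, the largest changes per comparison, members called in opposite directions and SLFN11, BRCA1, BRCA2 and PARP1. Figures used matplotlib 3.10.9 in Python 3.11.15.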

Additional observations from a re-analysis of the deposited data

Results flagged for a closer look

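The BETi effects of several members differed between times or lines by a test of the difference itself (an interaction term in edgeR's quasi-likelihood model, Benjamini-Hochberg adjusted over all genes), with 3 libraries a group. Each value is a difference of log2 changes with its SE. Over time, 20 d minus 3 d, BLM differed by 0.60 ± 0.18 (adjusted p = 0.0397) and FANCG by 0.49 ± 0.14 (adjusted p = 0.0313) in CHLA10, and BLM by -0.66 ± 0.18 (adjusted p = 0.0207) and PARP1 by -0.45 ± 0.14 (adjusted p = 0.043) in A673. These 4 calls were lost in 10, 8, 4 and 10 of the 12 fits that left out 1 library. Across those fits the differences ranged over 0.51 to 0.71 for BLM and 0.41 to 0.56 for FANCG in CHLA10. In A673 they ranged over -0.86 to -0.53 for BLM and -0.51 to -0.38 for PARP1. For BLM the DMSO groups of both lines also differed between the days.

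For A673 minus CHLA10 at 3 d, BLM differed by 0.78 ± 0.18 (adjusted p = 0.0047), XRCC2 by 0.60 ± 0.15 (adjusted p = 0.0118) and PARP1 by 0.54 ± 0.14 (adjusted p = 0.0108). For TC32 minus CHLA10 at 3 d, WRN differed by 1.02 ± 0.18 (adjusted p = 0.000543), PARP2 by -0.89 ± 0.16 (adjusted p = 0.000521) and FANCM by 0.74 ± 0.21 (adjusted p = 0.0207; 0.55 and adjusted p = 0.0676 with the length trend removed, and lost in 5 of 12 fits that left out 1 library). For TC32 minus A673 at 3 d, RAD50 differed by 1.35 ± 0.37 (adjusted p = 0.00839), BLM by -0.99 ± 0.18 (adjusted p = 0.000296) and FANCM by 0.97 ± 0.21 (adjusted p = 0.00172). For A673 minus CHLA10 at 20 d, RAD51D differed by -1.34 ± 0.23 (adjusted p = 0.000117), RAD54L by -0.86 ± 0.22 (adjusted p = 0.00529) and SLFN11 by -0.65 ± 0.15 (adjusted p = 0.00228).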

How the results depend on the processing

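Of 466 member counts under an alternative, 334 stayed within 1.5 times the count reported and 132 did not. The called changes, with the largest called differences of effects in each comparison, made 86 results. Of these, 85 kept their call without the 4 distant libraries, 82 with DESeq2 and 51 in every fit that left out 1 library. The differences given above for NBN and FANCI were not among them. The 4 distant libraries were picked by their distance in these same data, so calls kept without them are no independent support. ATR in TC32 alone changed sign, to -0.031 with the length trend removed. Counts that moved follow, for which the cause was not tested unless fewer samples or a stricter threshold sets them. The share of all genes called also moves with the setting, and it is given above for only some settings. The counts here and in the next paragraph thus compare settings and do not set members against other genes. Without the 4 distant libraries, 8 members were higher in CHLA10 at 3 d, 13 higher and 9 lower in A673 at 3 d, 2 lower in CHLA10 and 14 lower in A673 at 20 d; the effects differed for 15 (CHLA10) and 13 (A673) between times, 12 (A673 minus CHLA10, 3 d), 17 (TC32 minus CHLA10) and 17 (A673 minus CHLA10, 20 d); and 17 differed between days in A673 DMSO, 2 under BETi in CHLA10 and 9 under BETi in A673. With no filter, 3 were lower in CHLA10 at 3 d and 2 higher in A673 at 20 d, and effects differed for 0 and 1 between times and 6 for TC32 minus CHLA10. At adjusted p under 0.01, 2 were lower in CHLA10 and 2 in A673 at 3 d, 6 higher in TC32, 8 higher in CHLA10 and 1 in A673 at 20 d; effects differed for 0 and 0 between times and 1, 2 and 5 between lines at 3 d, and 11 (CHLA10) and 0 (A673) differed between days in DMSO. At 1.5-fold or more, 1 was higher and 1 lower in CHLA10, 2 and 2 in A673, 6 and 3 in TC32, 0 and 0 in CHLA10 at 20 d and 0 and 3 in A673 at 20 d; effects differed for 1, 1, 2, 4, 7 and 4 in the order used above, and 3, 0 and 0 differed between days in CHLA10 DMSO, A673 DMSO and A673 BETi. DESeq2 gave 8 lower in A673 at 3 d and 13 at 20 d, 10 for CHLA10 between times, and 5 and 5 between days in A673 DMSO and BETi. In A673 at 20 d, 12 were lower with RLE factors, 13 lower and 2 higher with upper-quartile factors, 16 lower and 1 higher with library size only, 13 lower with a CPM filter and 11 with the length trend removed. Between days in A673 BETi these settings, RLE aside, gave 6, 10, 5 and 4. Library size only gave 1, the length trend removed 6, limma-voom 5 and the lines of the contrast alone 5 for CHLA10 between times. The CPM filter gave 3 and the length trend removed 4 between days in A673 DMSO, where the lines alone gave 0, as for A673 between times; the length trend removed gave 14 for A673 minus CHLA10 at 20 d. With the replicate block, 12 were higher and 2 lower in CHLA10 at 20 d and effects differed for 4 between its times; outside CHLA10 at 20 d the numbers do not pair the libraries.

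Leaving out 1 library gave 3 to 5 higher and 4 to 5 lower in CHLA10, 5 to 7 and 3 to 7 in A673 and 6 to 12 and 10 to 13 in TC32 at 3 d, and 8 to 13 and 0 to 2 in CHLA10 and 1 to 4 and 5 to 8 in A673 at 20 d. Differences of effects ranged over 0 to 8, 0 to 4, 3 to 8, 2 to 13, 8 to 17 and 7 to 14. Days in DMSO gave 11 to 15 in CHLA10 and 0 to 9 in A673, days under BETi 0 to 0 and 2 to 6, and lines 22 to 26, 25 to 27 and 27 to 31. RAD50, RAD51B and RAD54B had few counts, at 24 to 267, 33 to 168 and 27 to 197 per library; the part of depth and of shared exons in this was not tested.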
